A study of Mus musculus with 12 samples.

Results

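The genes described here are 46 components of the secretory pathway that are generally listed as targets of the transcription factors XBP1 and ATF6. They were taken by symbol, under a rule that uses no measured value, but they were chosen with earlier results of these data known. All 46 were found among the 35050 rows of the count table. All of them also passed the filter on low counts, which left 16546 genes for testing. By role, 15 act in protein translocation and N-glycosylation, 12 are chaperones or co-chaperones, 4 are disulfide isomerases, 7 act in degradation of misfolded proteins, and 8 belong to vesicle coats or carry cargo between the endoplasmic reticulum (ER) and the Golgi.

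Poly(A) RNA was sequenced from peritoneal macrophages of 8-week-old male mice, which had been injected intraperitoneally with 3% Brewer thioglycolate, an irritant that draws cells into the peritoneum, 3 days earlier. There were 4 groups of 3 libraries. The groups called WT carried floxed Ern1 alleles (Ern1fl/fl), and the groups called KO carried the label Mac-Ern1KO; the Cre driver is not named in the labels, so the cells that lost Ern1 are known only through that name. R300 groups were cultured for 2 h together with opsonised platelets, that is, platelets carrying the anti-CD42 antibody R300 that marks them for engulfment. For the blank groups the treatment label reads Con, and whether uncoated platelets were present is not stated. The design text speaks of biological replicates but does not tie a library to an animal, so the p-values below measure the spread between these libraries, which may in part be technical.

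Ern1 encodes IRE1α, an ER membrane enzyme that senses misfolded proteins, splices the mRNA of Xbp1 and thereby allows the active XBP1 protein to be made. XBP1 raises the transcription of genes that import, glycosylate, fold, dispose of and export secretory proteins, whereas ATF6, a second sensor that is released by proteolysis in the Golgi, acts mostly on ER chaperones. Many of these genes answer to both factors, and all of them are transcribed at a basal level in cells without ER stress. Macrophages use the pathway for lysosomal enzymes, cytokines and surface receptors.

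A sequence feature that the choice of genes did not use directly is the ER stress response element in their promoters. RefSeq promoters (GRCm38.p6, 250 bases before to 50 bases after the start site) were matched for 33 of the 46 members, 36 promoters in all. The element ERSE (CCAAT, any 9 bases, CCACG, on either strand) was found in 8 of the 36 (22.2%), against 0.119% of the 32851 promoters in the table, and the shorter ERSE-II (ATTGG, any 1 base, CCACG) in 2 (5.56% against 0.0365%). The XBP1 core TGACGTGG was found in 1 (2.78% against 0.676%), that of Sec24d. The members with ERSE were Hspa5, Hsp90b1, Calr, Canx, Creld2, Dnajc3, Pdia6 and Syvn1, and those with ERSE-II were Herpud1 and Dnajb11. No member's promoter held more than 1 of these kinds of match. Because the members are known as ATF6 and XBP1 targets, such matches are a description and not evidence of binding in these cells. The sequences below are printed 5′ to 3′ on the gene's strand with the matched letters, spacer included, in capitals; they are shown to let the element be compared between a general chaperone, a co-chaperone, an isomerase and 2 genes whose levels are given in full further on.
Hspa5, ERSE, chr2:34772015-34772053, plus strand: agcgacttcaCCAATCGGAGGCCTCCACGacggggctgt
Dnajc3, ERSE, chr14:118937817-118937855, plus strand: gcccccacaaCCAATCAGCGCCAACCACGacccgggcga
Pdia6, ERSE, chr12:17266481-17266519, plus strand: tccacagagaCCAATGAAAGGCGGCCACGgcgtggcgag
Creld2, ERSE on the opposite strand, chr15:88819510-88819548, plus strand: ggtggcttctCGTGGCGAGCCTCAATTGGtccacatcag
Herpud1, ERSE-II, chr8:94386367-94386397, plus strand: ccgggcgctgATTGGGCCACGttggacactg
The spacer between the fixed blocks differed from gene to gene, and the distance of the match from the start site ranged from 65 bases (Hspa5) to 126 bases (Creld2) upstream among the 4 ERSE windows shown.

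Depth was 21765600 to 44273700 counts per library. The members together took 0.573% to 0.661% of each library. Some features of the libraries bear on every comparison. Although the mice are labelled male, 8 libraries held 142.9 to 590 CPM of Xist, the RNA that silences an X chromosome, and the other 4, 1 in each group, held at most 0.0742 CPM. Blank WT 2 and blank KO 2 stood apart by their marker sums for B cells (125.8 and 105.8 CPM, against 24.34 to 57.29 in the others) and for neutrophils (85.12 and 88.44 CPM, against 26.9 to 49.39). The mesothelial cell and fibroblast sum (10 genes) varied widely within groups. It was 659.7, 148.6 and 180.3 CPM in blank WT and 459.5, 359.5 and 375.4 in blank KO. With R300 it was 703.5, 192.9 and 1409 in WT and 368.7, 818.2 and 357.8 in KO. These ranges overlapped between groups, and the part of such cells in the members' values was not tested. R300 WT 1 and 3 and R300 KO 1 and 2 were closer to each other than the other replicate pairs (median chi-square per gene 1.37 and 1.53, against 6.14 to 10.1), but further apart than sampling noise (0.455), and were kept as separate libraries. Whether they share an animal or RNA is not stated, and a distance beyond sampling noise cannot settle it. Counts of Ern1, the targeted gene, gave no lower values under the KO label. They stood at 113, 117 and 94.1 CPM in blank WT, 150, 155 and 116 in blank KO, 204, 138 and 205 in R300 WT and 235, 225 and 174 in R300 KO. Counts over the whole gene include exons outside a deletion and do not check the label, so KO stands for the labelled genotype throughout.

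Levels between genes were compared per kb of exon (CPM per kb, all annotated exons of a gene joined). The folding machinery was the most abundant. The mean over the 12 libraries was 166.4 CPM per kb for P4hb, protein disulfide isomerase, and 163.4 for Calr, the lectin chaperone calreticulin. Pdia3, the isomerase that works with it, followed at 115.1, Hspa5, the ER Hsp70 chaperone BiP, at 106.8, Canx, the membrane-bound lectin chaperone calnexin, at 85.95, and Hsp90b1, the ER Hsp90, at 71.63. The lowest were Hspa13, a small Hsp70 relative, at 6.365, Arfgap3, which acts on the GTPase of Golgi coats, at 7.322, and Sec61g, a small subunit of the translocation channel, at 8.175 CPM per kb. Some markers of antibody-secreting plasma cells, which hold this machinery at high levels, were close to absent. Jchain reached at most 1 CPM, Mzb1 0.937, Derl3 0.379 and Tnfrsf17 0.0742, and Tnfrsf17 was at 0 in 9 of the 12 libraries. Irf4 (6.155 to 23.22 CPM) and Pou2af1 (2.839 to 13.15 CPM) were present, both highest in blank KO 2. The summed plasma cell list (8 genes measured) ran from 265.9 to 960.7 CPM and was mostly Sdc1 and Prdm1, at up to 823.8 and 126.9 CPM.

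The comparison of KO with WT in each state asks what the loss of Ern1 does to the genes that XBP1 and ATF6 are known to serve. Most members stood slightly lower in KO. In the blank state 34 of 46 had a negative log2 difference (median -0.090, against 0.0025 over all genes tested), and with R300-coated platelets 41 of 46 did (median -0.084, against -0.0059). None of these differences passed the test: edgeR's quasi-likelihood test with Benjamini-Hochberg adjustment called 0 of the 46 in either state, beside 0% of all genes in the blank state and 0% with R300. At an unadjusted p under 0.05, 5 members (10.9%) were lower in blank KO and 7 (15.2%) in R300 KO, with none higher, where all genes gave 1.09% and 1.96%. Without the near-alike libraries R300 WT 3 and R300 KO 2, the R300 count at that limit was 2 (all genes 0.954%). The replicate numbers paired the blank libraries, and a fit of the 6 blank libraries with the number as a block, added after seeing the data, still called 0 members, with 11 at an unadjusted p under 0.05 (all genes 4.28%). The same libraries without the block gave 0 such members (all genes 0.677%). In bulk RNA, fewer cells of a type and less RNA per cell cannot be told apart.

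**Figure D1:**
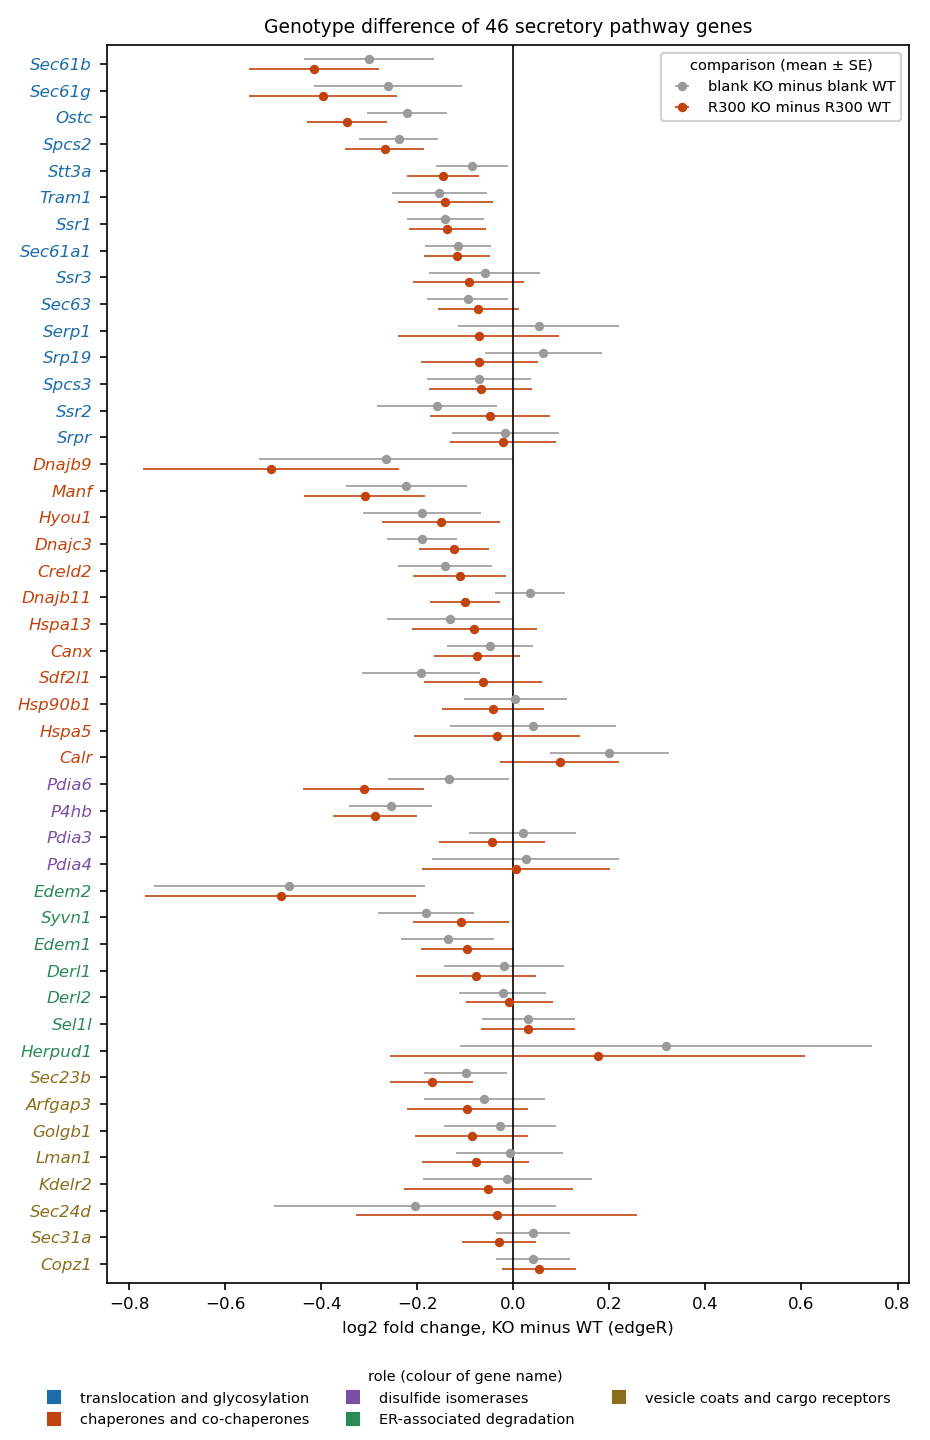
Log2 fold change between genotypes (KO minus WT, x axis) of the 46 members (y axis, grouped and coloured by role), in blank (grey) and R300 (red) libraries, with the SE of the edgeR fit as bars. All 15 translocation and glycosylation genes lie left of 0 with R300, and Calr and Herpud1 lie right of 0 in both states. Herpud1 in the blank state (0.32) is at -0.33 without blank KO 2 alone. Without both high libraries, blank WT 2 and blank KO 2, its remaining blank KO libraries lie above the blank WT libraries.

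The groups were also compared by whether their libraries overlapped. In the blank state the 3 KO libraries lay below the 3 WT libraries for 9 members (19.6%), where 1.96% of all genes did so, and above them for 0, where 1.74% of all genes did. With R300 the KO libraries lay below for 14 members (30.4%, all genes 3.87%) and above for 0 (all genes 4.03%). Sec61a1, Ssr1, Spcs2, Stt3a, Ostc and P4hb were separated in both states, 6 members (13%), where 0.411% of all genes were lower in both, 0.218% of all genes were higher in both and no member was. Among the 6637 genes within the members' range of mean level (17.87 CPM for Creld2 to 476 for P4hb), 0.422% were lower in both. With relative log expression factors Ssr1 and Stt3a dropped out of the 6, and with library totals only Sec61a1 dropped out and Dnajc3 came in. Without blank WT 2 and blank KO 2 the blank count was 22 members lower (all genes 9.97%) and 2 higher (10.2%), Dnajb11 and Herpud1, and without R300 WT 3 and R300 KO 2 the R300 count was 21 lower (9.16%) and 1 higher, Calr (9.29%).

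Ostc, a subunit of the oligosaccharyltransferase that attaches N-glycans, gave the lowest p in R300 libraries. It lies on chromosome 3 at 130695912-130709444 (GRCm38, minus strand). Its level was 34.3, 34.9 and 37.9 CPM in blank WT, 28.5, 30.6 and 32.7 in blank KO, 42.5, 38.6 and 41.6 in R300 WT and 32.2, 32.2 and 32.1 in R300 KO. The genotypes did not overlap in either state, and the R300 KO libraries lay below every WT library, blank ones included. The log2 difference, KO minus WT, was -0.35 with R300 (SE 0.084, unadjusted p = 0.00164) and -0.22 in the blank state (SE 0.083); both had an adjusted p of 1 in edgeR.

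Stt3a, the catalytic subunit of the form of that enzyme that works during translocation, showed the same order with smaller gaps. It held 155, 156 and 167 CPM in blank WT, 144, 154 and 152 in blank KO, 173, 182 and 167 in R300 WT and 155, 157 and 159 in R300 KO. In the blank state the highest KO library (153.6 CPM) was just under the lowest WT library (154.7 CPM).

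Spcs2, a subunit of the signal peptidase that removes signal sequences, stood at 73.7, 79.7 and 85.6 CPM in blank WT and 62.9, 69.8 and 69.9 in blank KO. With R300 it was at 81.5, 87.0 and 81.1 in WT and 68.0, 70.4 and 69.0 in KO. All 6 KO libraries were lower than all 6 WT libraries. The log2 difference was -0.24 in the blank state (SE 0.082) and -0.27 with R300 (SE 0.082), both with an edgeR adjusted p of 1. The other signal peptidase member, Spcs3, overlapped in both states.

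Sec61a1, which forms the channel through which new chains enter the ER, had a small gap and little scatter. Its blank WT libraries held 152, 148 and 153 CPM, blank KO 141, 141 and 136, R300 WT 163, 160 and 164, and R300 KO 150, 151 and 148. The SD within a group was 1.70 to 3.30 CPM, and R300 KO overlapped blank WT. Some 8.16% of its exonic bases are shared with Gm44170 on the opposite strand, and the counts come from a kit that does not mark strand.

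The small channel subunits differed by more and scattered by more. Sec61b was at 36.7, 38.5 and 28.8 CPM in blank WT and 24.5, 31.0 and 28.9 in blank KO, which overlapped, and at 41.1, 33.8 and 41.3 in R300 WT and 31.0, 27.8 and 28.3 in R300 KO, which did not. The log2 difference was -0.42 with R300 (SE 0.135, edgeR adjusted p = 1). Sec61g was separated in the blank state, at 20.1, 22.7 and 19.2 CPM in WT and 14.9, 17.7 and 19.1 in KO with the closest libraries nearly equal, and overlapped with R300, at 28.2, 19.8 and 24.8 in WT and 19.0, 20.3 and 16.0 in KO (log2 -0.40, SE 0.154, edgeR adjusted p = 1). In the blank libraries without Xist the 2 genotypes were equal for Sec61b (28.8 and 28.9 CPM, a ratio of 1), and likewise for Sec61g (ratio 0.998).

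Ssr1, a subunit of the translocon-associated protein complex that helps some signal sequences open the channel, was at 128, 135 and 145 CPM in blank WT and 117, 128 and 125 in blank KO, and at 148, 150 and 144 in R300 WT and 130, 141 and 132 in R300 KO. The blank gap was narrow, from 128.02 CPM in the highest KO library to 128.38 in the lowest WT library. Ssr3 of the same complex and Tram1, which contacts entering chains, were separated with R300 only, a contrast between states that was not called by the interaction test. Srp19 and Srpr, which bring ribosomes to the membrane, Serp1 and Ssr2 overlapped in both states.

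**Figure D2:**
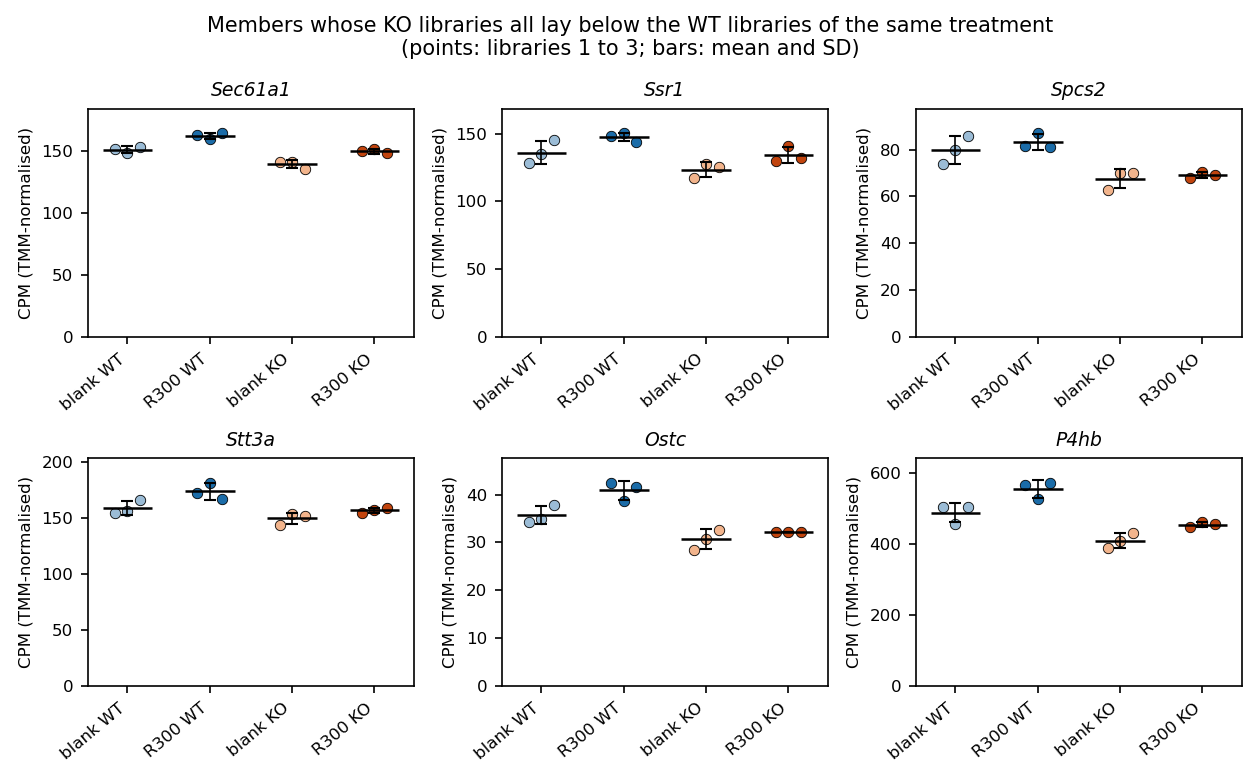
Level (TMM-normalised CPM, y axis from 0) of the 6 members whose KO libraries lay below the WT libraries of the same treatment in blank and in R300, by group (x axis). Points are libraries, lines the mean and bars the SD of 3 libraries; the gaps are small beside the level, as for Sec61a1 with 141 CPM or less in blank KO and 148 or more in blank WT.

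Among the isomerases, P4hb was separated in both states. Besides catalysing disulfide exchange it serves as the beta subunit of collagen prolyl hydroxylase, and it lies on chromosome 11 at 120560298-120573253 (GRCm38, minus strand). Its libraries held 504, 456 and 503 CPM in blank WT, 387, 409 and 430 in blank KO, 566, 525 and 572 in R300 WT and 448, 460 and 454 in R300 KO. Blank KO was the lowest group, and R300 KO overlapped blank WT. The log2 difference was -0.26 in the blank state (SE 0.087) and -0.29 with R300 (SE 0.087), with an edgeR adjusted p of 1 for each.

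The other isomerases did not share this pattern. Pdia6 overlapped in the blank state (127 to 147 CPM in WT, 107 to 152 in KO) and was separated with R300, at 160, 142 and 159 CPM in WT and 124, 126 and 122 in KO (log2 -0.31, SE 0.126, edgeR adjusted p = 1). Pdia3 and Pdia4 overlapped in both states, with log2 differences between -0.044 and 0.026.

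The chaperones were divided. The major ones showed little difference by genotype: for Hspa5 the log2 difference was 0.04 in the blank state (95% interval -0.34 to 0.42) and -0.035 with R300 (-0.41 to 0.35). Hspa5 was at 396, 459 and 413 CPM in blank WT, 351, 587 and 367 in blank KO, 476, 482 and 483 in R300 WT and 498, 481 and 427 in R300 KO. Blank KO 2 was the highest of all 12 libraries and the other blank KO libraries were the lowest. Without blank KO 2 the blank difference was -0.235 for Hspa5, and those of Hsp90b1 and Pdia3 also turned negative, from 0.0038 and 0.020 to -0.11 each. Calr was the chaperone with a positive difference in both states, at 0.20 and 0.097 (SE 0.124 for each), and its blank KO 2 library was again the highest at 586 CPM.

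Several co-chaperones had lower means in KO. Dnajb9, a J-domain partner of BiP and a common readout of XBP1, was at 26.1, 40.5 and 40.8 CPM in blank WT, 18.8, 40.6 and 30.0 in blank KO, 34.1, 40.3 and 31.9 in R300 WT and 20.7, 23.8 and 30.4 in R300 KO. The blank libraries overlapped and the R300 libraries did not. Its difference with R300 was the largest of the chaperones but imprecise (log2 -0.50, 95% interval -1.09 to 0.082, edgeR adjusted p = 1). Sdf2l1, which binds a J-domain protein in the ER and is another XBP1 readout, was at 26.6, 26.8 and 22.4 CPM in blank WT, 19.9, 26.0 and 20.3 in blank KO, 24.6, 22.9 and 21.6 in R300 WT and 22.5, 21.4 and 22.2 in R300 KO. It overlapped in both states.

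Dnajc3, a co-chaperone that also restrains the kinase of another stress sensor, was separated in the blank state (99.8, 107 and 108 CPM in WT against 92.5, 93.1 and 90.6 in KO). With R300 the highest KO library (97.3 CPM) passed the lowest WT library (97.0 CPM). Manf, a small ER protein that binds BiP, was separated with R300, at 47.9, 41.9 and 54.6 CPM in WT and 39.9, 40.4 and 36.2 in KO (log2 -0.31, SE 0.126, edgeR adjusted p = 1). Its exons overlap genes on the opposite strand over 8.85% of their bases.

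**Figure D3:**
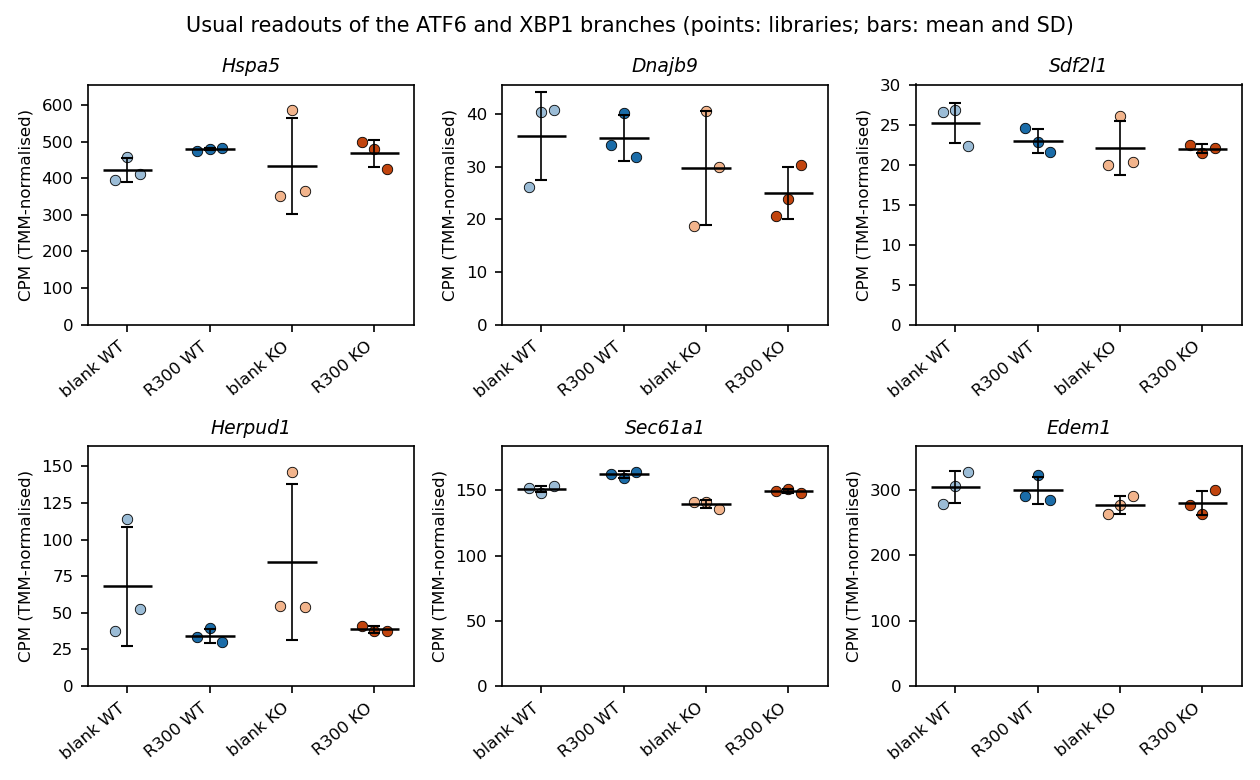
Level (TMM-normalised CPM, y axis from 0) of 6 genes commonly used to read the ATF6 and XBP1 branches, by group (x axis), with points for libraries, lines for the mean and bars for the SD of 3 libraries. Sec61a1 alone among the 6 is separated by genotype in both states, and blank WT 2 and blank KO 2 stand out for Herpud1 (114 and 146 CPM).

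In the degradation arm the sizes were uneven. Edem2, which starts the trimming of mannose on misfolded glycoproteins, had the most negative difference of this role in both states (log2 -0.47 and -0.48) with overlapping libraries. Its level was 70.9, 51.9 and 103 CPM in blank WT, 46.5, 45.1 and 72.2 in blank KO, 66.4, 93.5 and 66.4 in R300 WT and 48.2, 43.7 and 69.8 in R300 KO. The highest library of each group was the one without Xist. Within the libraries without Xist the KO to WT ratio was 0.698 in the blank state and 0.747 with R300, and within those with Xist it was 0.746 and 0.692. Edem1, its relative, overlapped in both states, at 279, 307 and 328 CPM in blank WT, 263, 277 and 291 in blank KO, 291, 323 and 285 in R300 WT and 277, 263 and 300 in R300 KO. Syvn1, the ubiquitin ligase of the degradation complex, Derl1 and Derl2 had negative and Sel1l, the partner of Syvn1, had positive differences in both states, all with overlap. Herpud1, a membrane scaffold of that complex, is described with the platelet response.

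Of the 8 vesicle genes, 6 in the blank state and 7 with R300 had a negative difference. Sec23b, a subunit of the COPII coat that carries cargo out of the ER, was separated with R300 (61.4, 60.4 and 61.2 CPM in WT against 53.6, 57.2 and 51.8 in KO). Copz1, a subunit of the COPI coat that returns vesicles to the ER, was the member of this role with a positive difference in both states, at 0.041 and 0.054. Lman1 and Kdelr2, receptors that ferry glycoproteins forward and ER residents back, overlapped between genotypes in both states.

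When the genotype difference was averaged over both states, a contrast chosen after seeing the data, 39 of 46 members had a negative value and 11 (23.9%) had an unadjusted p under 0.05, where 2.80% of all genes did. edgeR's quasi-likelihood test called 0 members, beside 0.00604% of all genes. The lowest values were for Ostc (log2 -0.28, 95% interval -0.41 to -0.15, adjusted p = 0.366), P4hb (-0.27, -0.41 to -0.14, adjusted p = 0.459) and Spcs2 (-0.25, -0.38 to -0.13, adjusted p = 0.470). The DESeq2 Wald test called these 3, with adjusted p of 0.0136, 0.00178 and 0.0495, and 48 of 16747 genes in all. With a term for the libraries without Xist, edgeR called Edem2 alone among the members (log2 -0.48, adjusted p = 0.0469), and 28 of 16546 genes in all. The calls depended on the test used. Over 22 alternatives the value ran from -0.30 to -0.26 for Ostc, from -0.29 to -0.25 for P4hb and, more widely, from -0.59 to -0.33 for Edem2.

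The direction was seen with and without Xist. In the 4 libraries without it, 1 per group, 38 of 46 members were lower in KO in the blank state and 39 with R300, where 49.5% and 50.3% of all genes were. In the 8 libraries with it, the counts were 30 and 41, where 50.4% and 51.2% of all genes were. The sum of the macrophage markers, with 8 of 8 genes measured and none at 0 in any group, was 17270 to 19140 CPM in WT and 11000 to 14680 in KO. That gap lay in 1 gene, Lyz2, the macrophage lysozyme, at 12180 to 13520 CPM in WT and 6058 to 7317 in KO. Over both states the other genes of the list overlapped between genotypes. Adgre1, which encodes the F4/80 antigen, was at 566.3 to 702 in WT and 575.5 to 705.6 in KO. Csf1r was at 1591 to 2121 in WT and 1496 to 2270 in KO. Besides Lyz2, Fcgr1 alone was separated within a state, narrowly, with R300 (58.18 CPM or more in WT, 58.04 or less in KO). The B cell sum (8 genes) was higher in KO with R300, at 33.02 to 51.35 CPM against 24.34 to 29.8 in WT, and overlapped in the blank state. The eosinophil and mast cell sum (10 genes) was higher in blank KO, at 21.5 to 36.81 CPM against 14.92 to 19.97, and overlapped with R300. The part of cell composition in the members' values was not tested.

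The comparison of R300 with blank libraries asks how the pathway responds within 2 h of coated platelets. The changes were small and mostly upward in sign, but no member passed the test. In WT 35 of 46 had a positive log2 change (median 0.097, against -0.0047 over all genes) and in KO 34 did (median 0.049, against -0.0036). edgeR called 0 members in WT, where it called 0.623% of all genes, and 0 in KO, where it called 0.834%. At an unadjusted p under 0.05 there were 2 members (4.35%) in each genotype, fewer than the 8.72% and 8.78% of all genes. Without R300 WT 3 and R300 KO 2 there were 0 in each genotype (all genes 4.26% in WT and 5.12% in KO). With library totals as the only scaling the KO changes were divided evenly, 22 positive and 24 negative (median -0.0078).

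**Figure D4:**
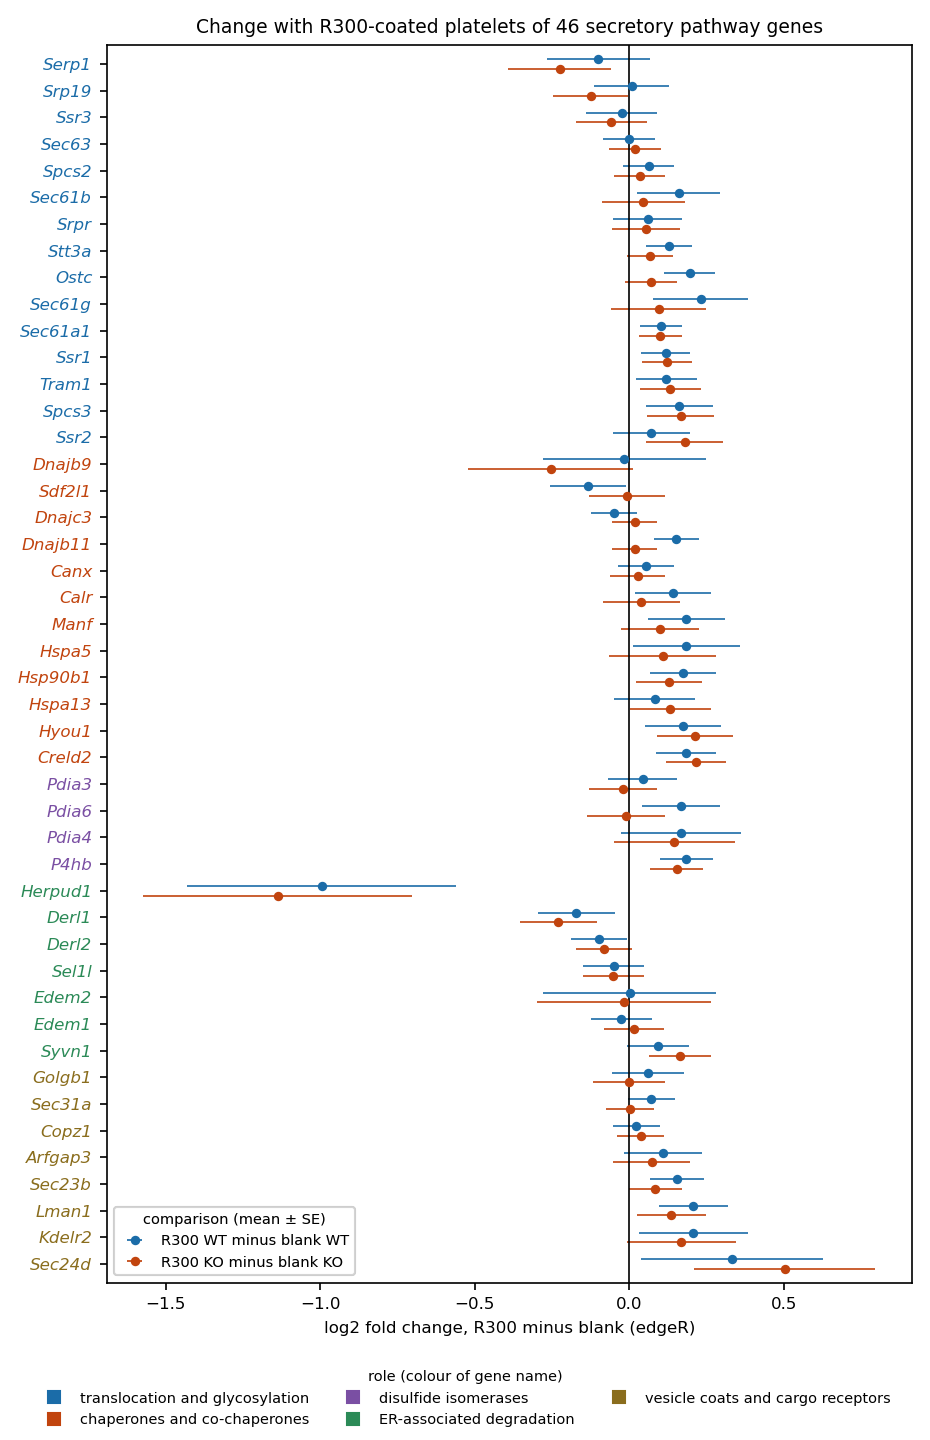
Log2 fold change with R300-coated platelets (R300 minus blank, x axis) of the 46 members (y axis, grouped and coloured by role) in WT (blue) and KO (red), with the SE of the edgeR fit as bars. All 8 vesicle genes lie at or right of 0 in both genotypes, which does not hold for 1 in WT and 3 in KO with library totals as the scaling, and Herpud1 lies far left near -1 in both.

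The roles differed in sign. All 8 vesicle genes had a positive change in both genotypes, 12 of 15 translocation genes did in each, and 5 of 7 degradation genes had a negative change in each. Of all genes 49.1% were positive in WT and 49.3% in KO. The smallest vesicle change in KO was 8.56e-05, in effect 0, and the blank and R300 means in KO were nearly equal for Golgb1 (116.99 and 117 CPM) and Sec31a (119.27 and 119.43 CPM). With library totals only, Copz1 in WT and Sec31a, Copz1 and Golgb1 in KO turned negative among the vesicle genes, and Golgb1 did so with relative log expression factors too. The isomerases were positive in 4 of 4 in WT and 2 of 4 in KO. Groups were fully separated, R300 higher, for 9 members in WT (19.6%, all genes 6.74%): Sec61a1, Stt3a, Ostc, Hspa5, Hsp90b1, Dnajb11, Creld2, P4hb and Sec23b. None was separated in the lower direction in WT (all genes 6.09%). In KO 5 members were separated upward (10.9%, all genes 6.64%), Sec61a1, Ssr1, Stt3a, Creld2 and P4hb, and 1 downward (2.17%, all genes 5.68%), Herpud1. These counts moved with the scaling and the libraries. With library totals only they were 3 upward (all genes 4.76%) and 3 downward (8.75%) in WT and 0 (4.70%) and 2 (9.09%) in KO. Without blank WT 2 and blank KO 2 they were 15 (all genes 12.7%) and 0 (11.5%) in WT and 18 (all genes 12.5%) and 1 (11.6%) in KO.

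The lowest p in WT belonged to Ostc, whose R300 WT libraries all lay above the blank WT libraries (log2 0.20, SE 0.083, edgeR adjusted p = 0.535). P4hb came next after Herpud1 (log2 0.18, SE 0.087, edgeR adjusted p = 0.585). In KO, Creld2, an ER protein that can act on disulfides and the least abundant member by CPM, came next after Herpud1. Creld2 was at 15.9, 16.4 and 15.2 CPM in blank KO and 19.0, 18.9 and 17.1 in R300 KO (log2 0.21, SE 0.097, edgeR adjusted p = 0.567), and at 17.9, 17.2 and 17.3 in blank WT and 19.5, 18.4 and 21.6 in R300 WT. The R300 libraries of Creld2 were the higher ones in both genotypes, without overlap. Hspa5 was also separated in WT, where its R300 libraries ran from 475.9 to 482.7 CPM, but the fit, which uses the spread of all groups, gave a 95% interval of -0.20 to 0.57 around 0.18. Derl1, a channel protein of the degradation machinery, followed Creld2 in KO (log2 -0.23, SE 0.125, edgeR adjusted p = 0.701).

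Herpud1 was the largest change among the members and rested mainly on 1 library in each genotype. It lies on chromosome 8 at 94386438-94395377 (GRCm38, plus strand), and its ERSE-II window is printed above. Its blank WT libraries held 37.7, 114 and 52.6 CPM and its R300 WT libraries 33.2, 39.3 and 30.1. The blank KO libraries held 54.9, 146 and 53.7 and the R300 KO libraries 41.0, 37.6 and 37.3. Blank WT 2 and blank KO 2 were far above the rest, the groups overlapped in WT, and in KO every R300 library was below every blank library. The log2 change was -0.996 in WT (SE 0.435, edgeR adjusted p = 0.550) and -1.14 in KO (SE 0.435, edgeR adjusted p = 0.419). Without blank WT 2 and blank KO 2, a choice made after seeing the data, it was -0.40 in WT (SE 0.154, edgeR adjusted p = 0.483) and -0.49 in KO (SE 0.153, edgeR adjusted p = 0.278). Those same libraries held the highest B cell marker sums (125.8 and 105.8 CPM over 8 genes) and the highest neutrophil marker sums (85.12 and 88.44 CPM over 8 genes). The part of these cells in the Herpud1 value was not tested.

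**Figure D5:**
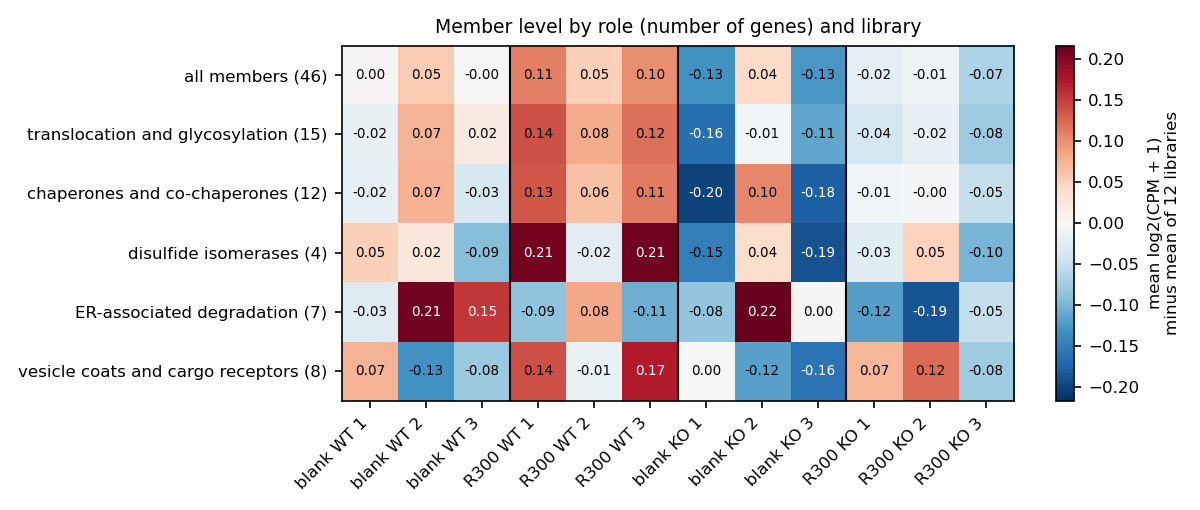
Mean log2(CPM + 1) of each role's genes minus the mean of the 12 libraries (colour and printed value), with roles in rows (number of genes in parentheses) and libraries in columns. Blank KO 1 and 3 are the lowest libraries for all members (-0.13 each) and R300 WT 1 the highest (0.11), while blank KO 2 stands at 0.041.

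By library, the summed level of the 46 members was 6067.8, 6377.8 and 6088.9 CPM in blank WT, 5596.6, 6663.1 and 5669 in blank KO, 6579, 6394.4 and 6538.1 in R300 WT and 6150.6, 6147.7 and 6011.1 in R300 KO. The R300 KO libraries were below the R300 WT libraries, and in the blank state KO 2 was the highest and the other KO libraries the lowest. As a share of library totals the R300 groups overlapped, with R300 KO 2 at 0.616% and R300 WT 2 at 0.607%. By that share blank KO 2 was still the highest blank library, but blank WT 3 (0.596%) lay below blank KO 1 (0.604%). The degradation genes followed another order than the rest, with the highest mean log levels in blank KO 2 and blank WT 2. That mean includes Herpud1, at 146 and 114 CPM in these libraries and 30.1 to 54.9 in the others. Derl1 was also highest in them (201 and 183 CPM), whereas Edem2 was at 45.1 and 51.9 CPM, the lowest of its blank group. The sum of cytosolic heat shock transcripts, which can mark handling, was higher with R300 (1409 to 1782 CPM for 8 genes, against 1164 to 1338 in blank libraries). Hspa8 made up most of the difference (805.2 to 1072 CPM against 633.7 to 738.5), and Hsph1 was separated too. The other genes of the list overlapped, such as Hspa1a (15.65 to 34.04 CPM with R300, 13.7 to 32.42 in blank libraries), Hspa1b, Dnajb1 and Hspb1. The plasma cell sum (8 genes) was also higher with R300, from 597.7 to 960.7 CPM against 265.9 to 596.5. Most of that rise was Sdc1, at 486.6 to 823.8 CPM against 180.9 to 505.2. So was the dendritic cell sum (6 genes) higher, from 41.73 to 60.9 against 19.2 to 35.65. That rise was mostly Ccr7, at 26.99 to 47.27 CPM against 9.905 to 18.67, and each other gene of the dendritic cell list overlapped between R300 and blank libraries. The eosinophil and mast cell sum (10 genes) was higher within each genotype, at 34.25 to 41.25 against 14.92 to 19.97 CPM in WT and 39.86 to 62.7 against 21.5 to 36.81 in KO. The part of these transcripts and cells in the platelet response of the members was not tested. Mitochondrially encoded transcripts, a sign of RNA quality, overlapped between groups (19320 to 35720 CPM in blank WT, the widest range).

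The interaction term asks whether the platelet response differed by genotype. It called 0 members, beside 0% of all genes, and 0 members had an unadjusted p under 0.05, where 0.574% of all genes did. Of the 46 values, KO minus WT, 31 were negative with a median of -0.032. The lowest p belonged to Dnajb11, a J-domain co-chaperone, with -0.13 (95% interval -0.36 to 0.092), Ostc with -0.12 (-0.38 to 0.14) and Pdia6 with -0.18 (-0.57 to 0.21), each with an edgeR adjusted p of 1. Dnajb11 was at 86.1, 94.6 and 88.4 CPM in blank WT, 100, 103 and 96.0 in R300 WT, 89.4, 93.3 and 92.8 in blank KO and 94.3, 90.0 and 94.7 in R300 KO. R300 WT was the group that stood above the others. Without blank KO 2 the median changed sign, to 0.029.

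Members with and without an ERSE match were compared by their medians only. For the genotype difference with R300 the median was -0.093 for the 8 members with an ERSE match. It was also -0.093 for the 25 with a promoter entry and no ERSE match, which include Herpud1, Dnajb11 and Sec24d with their other matches. In the blank state the medians were -0.092 and -0.085. For the platelet response they were 0.154 and 0.059 in WT and 0.073 and 0.019 in KO, and 7 of the 8 members with a match had a positive change in each genotype, all but Dnajc3 in WT and Pdia6 in KO. For the 13 members without a promoter entry the genotype medians were -0.081 with R300 and -0.115 in the blank state. Their medians for the platelet response were 0.12 in WT and 0.133 in KO, the latter above that of the members with an ERSE match.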

How the data were processed

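Libraries were made from poly(A) RNA selected with oligo(dT), per the labels' protocols, with a NEBNext Ultra kit that keeps no strand information. The submitters' processing notes name the mm10 genome, the aligner HISAT2 (version 2) and the counter featureCounts 2.0.3, besides fastp 0.23.4, FastQC 0.12.1 and DESeq2 1.42.0; annotation and strand setting are not given in the sources used here. The deposited values are raw counts per gene symbol, made by the authors and not normalised. The 102 rows without a symbol (at most 0.0328% of a library) were left out, and no column was without a sample.

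Counts were tested with edgeR 4.0.16 in R 4.3.3 (TMM, filterByExpr, robust quasi-likelihood fit of all 12 libraries, Benjamini-Hochberg over 16546 genes, called at adjusted p under 0.05). CPM are TMM-normalised; SD and n refer to 3 libraries. Genes were called separated where the ranges of 2 groups do not overlap. The script was tested on simulated data. Alternatives were DESeq2 1.42.0, limma 3.58.1 voom, relative log expression factors, library totals, no filter, a fit of the compared groups alone, a replicate block, a term for or removal of libraries under 1 CPM of Xist, removal of near-alike libraries, and each library left out. Replicate numbers paired blank WT with blank KO by the correlation of deviations from the group means (0.614, 0.629 and 0.687, each library best with its own number), which comes from the data and not from the labels; no other pair of groups compared met this. Added after seeing the data were the contrast over both states, the block within the blank libraries, removal of blank WT 2 and blank KO 2, and the separated counts under other scalings and without libraries.

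The members, gene lists and tests were chosen with earlier results of these data known. Tests are printed for the 3 members with the lowest p in each comparison. They are also printed for some members at an unadjusted p under 0.05 and for the readouts Dnajb9 and Hspa5. Levels are given for 6 common readouts. Other members are named by role, by separation between groups or by an unadjusted p under 0.05, and Edem2, Calr, Copz1, Ddost and Xbp1 after their values were seen. Positions are from GENCODE M21 (GRCm38) and promoters from RefSeq (GRCm38.p6). Protein sequences were not analysed here.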

Additional observations from a re-analysis of the deposited data

How the results depend on the processing

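No member was called in the 5 planned comparisons under any alternative run (22 to 24 each, among them DESeq2, limma voom, other scalings, no filter and each library left out in turn). The contrast of genotype over both states was added after seeing the data. In it 3 members were called with DESeq2 (48 of 16747 genes in all) and 1 with the term for libraries without Xist (28 of 16546 genes). Under the other 20 alternatives 0 members were called. The number of all genes called moved by over 1.5 times: 28 to 347 for R300 against blank in WT (103 as reported), 34 to 450 in KO (138), 0 to 12 for R300 KO against R300 WT (0), 0 to 2 for blank KO against blank WT (0) and 0 to 48 for both states (1). The 3 members with the lowest p in each comparison, and those at an unadjusted p under 0.05, kept their sign. Of all 46, 24 kept it under every alternative in the blank genotype comparison, 38 with R300, 31 for the platelet response in WT, 24 in KO, 11 in the interaction and 34 over both states. With 1 library left out, the members lower in KO numbered 26 to 38 of 46 in the blank state and 36 to 42 with R300. The median in the blank state was -0.15 without blank KO 2 and -0.061 without blank KO 3.

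With a replicate block in the fit of all 12 libraries 0 members were called in every comparison, and 119, 141, 0, 0, 0 and 1 genes in all, in the order R300 WT, R300 KO, blank KO against WT, R300 KO against WT, interaction and both states. Within the blank libraries alone, where the numbers paired the groups, the block also gave 0 members and 0 genes; it changed no call. In the other comparisons 1 or 2 of 3 same-numbered pairs had a correlation of deviations over 0.1 (range -0.755 to 0.693). With 3 libraries a group, an exact two-sided permutation test cannot go below p = 0.1. The least abundant member, Creld2, held at least 15.2 CPM in each library.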

Other observations

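The list of other secretory pathway genes and ER stress sensors, 81 genes that are not among the 46 members, gave values of the same kind. In edgeR's quasi-likelihood test none of the 81 was called in any comparison. The genotype difference was negative for 58 of them in the blank state (median log2 -0.037) and for 51 with R300 (median -0.030), which left 28.4% and 37% positive, against 50.7% and 48.6% of all genes. At an unadjusted p under 0.05 there were 3 (3.70%) and 4 (4.94%), all lower, where all genes gave 1.09% and 1.96%. Rpn2 and Ddost, subunits of the oligosaccharyltransferase to which Ostc and Stt3a belong, Txndc11, a thioredoxin-domain protein, and Fkbp2, an ER prolyl isomerase, had all KO libraries below all WT libraries in both states. These were 4 of the 81 (4.94%), where 0.411% of all genes were lower in both. Ddost held 130, 120 and 132 CPM in blank WT, 109, 113 and 120 in blank KO, 144, 134 and 137 in R300 WT and 115, 121 and 125 in R300 KO. The lowest p was that of Txndc11 in the blank state (log2 -0.26, SE 0.092) and of Ddost with R300 (log2 -0.20, SE 0.079), each with an adjusted p of 1.

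With R300-coated platelets 53 of the 81 (65.4%, all genes 49.1%) had a positive change in WT and 58 (71.6%, all genes 49.3%) in KO. Ern1 had the lowest p in WT (log2 0.75, SE 0.183, adjusted p = 0.136) and Txndc11 in KO (log2 0.32, SE 0.092, adjusted p = 0.198). In the interaction Ssr4, of the complex that holds Ssr1, came first (log2 0.20, SE 0.110, adjusted p = 1). Xbp1, counted without regard to splicing, was at 133, 111 and 123 CPM in blank WT, 139, 127 and 139 in R300 WT, 123, 110 and 99.4 in blank KO and 160, 151 and 106 in R300 KO, with overlapping libraries in all 4 comparisons of groups.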
